A study of Mus musculus with 2 samples.

Results

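Cyclins and the cyclin-dependent kinases (CDKs) that they activate were examined in mouse embryonic stem cells (mESCs) depleted of AIMP3. The 10 genes are the D-type cyclins *Ccnd1*, *Ccnd2* and *Ccnd3*, the E-type cyclins *Ccne1* and *Ccne2*, the A-type cyclin *Ccna2*, the B-type cyclins *Ccnb1* and *Ccnb2*, and the kinases *Cdk1* and *Cdk4*. They were chosen by name, and their probes were found through the accession that the array lists for each probe. This gave 18 of the 55681 probes on the array, and 10 of the 37018 genes and other transcripts that these probes stand for. All 18 probes passed the filter on dim probes and were tested with 33012 probes in all.

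A cyclin binds its kinase and switches it on, and the kinase then phosphorylates proteins that carry the cell from one phase of its cycle to the next. D-type cyclins act with CDK4 or CDK6 in G1, when they phosphorylate the retinoblastoma protein, E-type cyclins act with CDK2 at entry into S phase, cyclin A2 acts in S and G2 phases, and B-type cyclins act with CDK1 at entry into mitosis. Embryonic stem cells have a short G1 phase and are known for low D-type cyclin levels and for cyclin E and CDK2 activity that varies little over the cycle.

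The cells were AIMP3f/f;cre-ERT2 mESCs from clones derived from blastocysts of mice with these alleles. AIMP3 is a scaffold protein of the complex that holds several aminoacyl-tRNA synthetases, and is encoded by *Eef1e1*. In these cells both *AIMP3* copies are flanked by loxP sites, and tamoxifen (4-OHT) switches on a Cre recombinase fused to a mutant oestrogen receptor, which then removes the flanked part. AIMP3-depleted cells received 2 μM tamoxifen for 4 days in medium with LIF, in 2 replicates, and control cells with the same alleles received ethanol for the same time. Tamoxifen was thus given only with the deletion, and the drug and active Cre cannot be told apart from the loss of AIMP3 as the source of a difference. Each AIMP3-depleted replicate was put on its own array with its RNA in Cy5. The RNA of the control replicates was mixed into 1 pool, which carried Cy3 on both arrays and counts as 1 control sample. The dyes were not swapped, and a gene-specific difference between dyes cannot be told apart from the treatment. The sources used here do not state whether the replicates were separate cultures. The p-values below therefore measure only the spread between these arrays, which may be technical, and leave out the spread between control cultures.

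Each value below is a log2 ratio with AIMP3-depleted cells over the control pool, the direction given by the dye labels, whereas the study's methods word their ratio as control over test. A ratio of 1 on this scale is a doubling of signal. Dye balance was set within each array by loess, a curve fitted to the ratios over the range of signal. In an alternative called median centring here, the median ratio of the array was subtracted instead. With median centring the adjusted p-values of the members followed the size of the ratio alone. They thus leave out a probe's own spread, and passing there is not comparable with passing under loess. The median log2 ratio over all 24022 tested genes, each by its brightest probe, was 0.015, with a median SD of 0.048 between arrays. Across the 4 channels the median spot was 2.68 to 3.31 times its local background. *Eef1e1* had log2 ratios of -0.90 on both arrays (SD 0.0067, n = 2), and of -0.68 with median centring. Whether its probe lies in the deleted part is not given in the sources used here, so this value is only a partial check of the labels. All 11 listed markers of pluripotent stem cells, among them *Pou5f1*, *Nanog* and *Sox2*, were well above background in both channels on both arrays.

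Among the 10 genes, *Ccnd2* rose by 1.87-fold and *Ccnd1* by 1.46-fold in AIMP3-depleted mESCs, while *Ccnb1* and *Ccnb2* fell to 0.81 and 0.85 of the control signal. The third D-type cyclin, *Ccnd3*, did not pass the test and had a log2 ratio of -0.08. *Cdk1* and *Cdk4* had log2 ratios of 0.05 and 0.11 and did not pass it either. At the threshold of the study, over 1.5-fold with an unadjusted p under 0.05, 1 of the 10 genes was called (*Ccnd2*), beside a background of 6.32% of all tested genes in either direction, 5.52% higher and 0.791% lower. At a Benjamini-Hochberg adjusted p under 0.05 by limma, at any fold, 4 of the 10 genes were called, 2 higher and 2 lower, beside a background of 51.8% of all tested genes, made up of 29.4% higher and 22.4% lower. By probe, 7 of the 18 were called, 2 higher and 5 lower, beside 50.5% of all tested probes, made up of 27.7% higher and 22.8% lower. These shares are near or below those of all genes, so the counts alone do not set the cyclins and their kinases apart from other genes. The B-type falls depend on how the dyes were balanced. With median centring, *Ccnb1* had a log2 ratio of -0.01 and *Ccnb2* of 0.07, and neither passed the test.

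**Figure D1:**
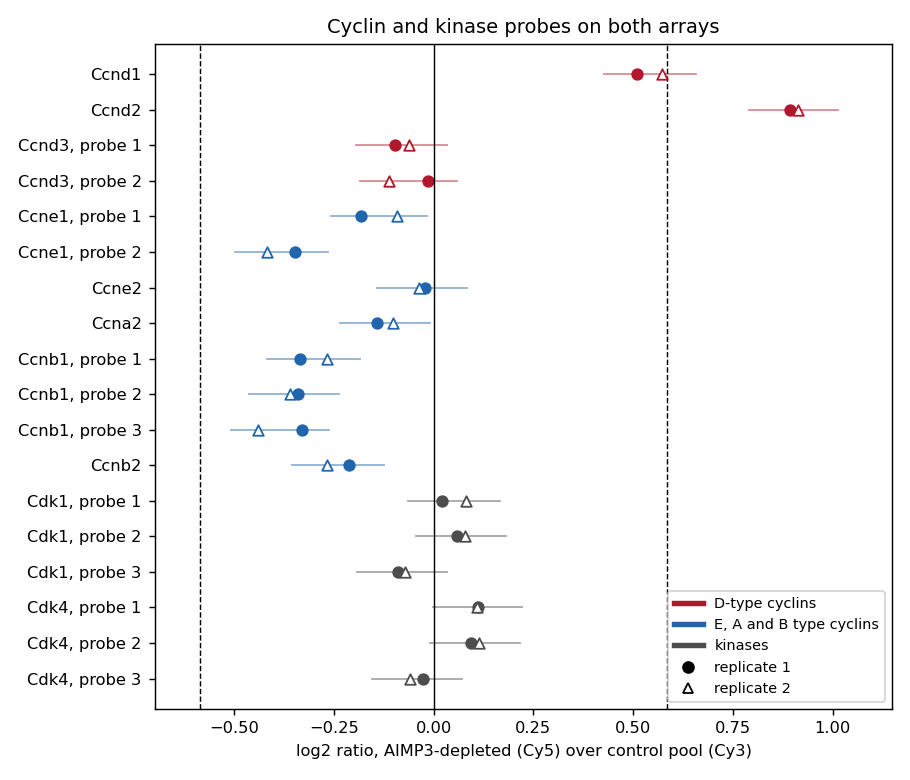
Log2 ratios of AIMP3-depleted (Cy5) over control (Cy3) for the 18 probes, with replicate 1 as a filled circle, replicate 2 as an open triangle and the 95% confidence interval of the limma fit as a line. Dashed lines mark 1.5-fold in either direction, and probes of a gene are numbered from the brightest. *Ccnd2* lies beyond 1.5-fold on both arrays, *Ccnd1* lies just short of it, and the 5 lowest probes belong to *Ccnb1*, *Ccne1* and *Ccnb2*.

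The D-type cyclins link growth signals to the cycle, since their transcripts respond to mitogens and adhesion. For *Ccnd2*, which is measured by 1 probe, the normalized signal, an intensity after background correction and loess, was 1604 in AIMP3-depleted cells and 864 in the control pool for replicate 1, and 1523 and 809 for replicate 2. Both AIMP3-depleted values lay above both control values, which come from 1 pool. The same held for the brightest probe of *Cdk4*, which did not pass the test. The log2 ratios were 0.89 and 0.91, with a mean of 0.90 ± 0.014 (SD, n = 2; limma, Benjamini-Hochberg adjusted p = 7.71e-05). The 95% confidence interval of the fold was 1.73 to 2.02, and the log2 ratio lay at percentile 98.2 of all tested genes. Under every setting tried, single arrays included, the log2 ratio of *Ccnd2* lay between 0.89 and 1.1. In bulk RNA such as this, a change in the share of cells that express a gene and a change in RNA per cell cannot be told apart.

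*Ccnd1*, the D-type cyclin best known as a target of mitogen signalling, also has 1 probe. Its normalized signal was 8473 in AIMP3-depleted cells against 5949 in the control pool for replicate 1, and 8674 against 5829 for replicate 2. The log2 ratios were 0.51 and 0.57, with a mean of 0.54 ± 0.045 (SD, n = 2) and a Benjamini-Hochberg adjusted p of 0.000357 by limma. The fold of 1.46 lay under the threshold of 1.5, and its 95% confidence interval of 1.34 to 1.58 held that threshold. *Ccnd1* therefore passed the adjusted test at any fold but was not called at 1.5-fold, and with median centring, where its log2 ratio was 0.78, it passed both.

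*Ccnd3*, a D-type cyclin that is broadly expressed in adult tissues, differed from its relatives. Its brightest probe gave 24368 in AIMP3-depleted cells against 26086 in the control pool for replicate 1, and 24254 against 25324 for replicate 2. The log2 ratios were -0.10 and -0.06, and those of the other probe, which is listed for another RefSeq transcript of the gene, were -0.01 and -0.11. Neither probe passed the test (adjusted p of 0.196 and 0.334 by limma). The *Ccnd3* ratio lay 0.61 below that of *Ccnd1* with replicate 1 and 0.64 below it with replicate 2. With median centring the signs turned, and the *Ccnd3* probes had log2 ratios of 0.26 and 0.19 and both passed (adjusted p of 0.000795 and 0.0175 by limma).

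**Figure D2:**
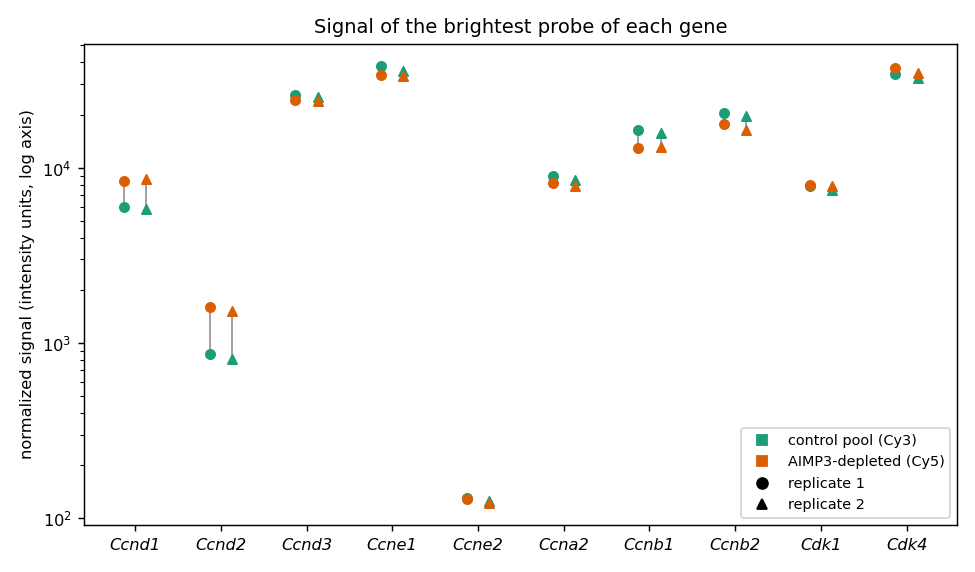
Normalized signal of the brightest probe of each gene in the control pool (Cy3, green) and in AIMP3-depleted cells (Cy5, orange), on a log axis in intensity units, with circles for replicate 1 and triangles for replicate 2. Signals of different probes have no common scale, so only the gap within a gene is read. The gap is widest for *Ccnd2*, where 1604 and 1523 stand against 864 and 809. The order of the channels is the opposite for *Ccnd3*, *Ccne1*, *Ccne2*, *Ccna2*, *Ccnb1* and *Ccnb2*.

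The E-type cyclins, which drive the start of DNA replication, had ratios at or below 0. The brightest probe of *Ccne1* gave 33739 in AIMP3-depleted cells against 38255 in the control pool for replicate 1, and 33557 against 35783 for replicate 2. Its log2 ratios of -0.18 and -0.09 did not pass the test (adjusted p = 0.0592 by limma), and did pass it with the stricter filter on dim probes (adjusted p = 0.0473). A dimmer probe listed for the same transcript had log2 ratios of -0.35 and -0.42, and it did pass (adjusted p = 0.00128 by limma). The means of these probes differed by 0.24, beyond the mean SD between the arrays of 0.056, so the size of any *Ccne1* difference rests on the probe. With median centring the brightest probe had a log2 ratio of 0.24 and the dimmer probe one of -0.17, and both passed in these opposite directions (adjusted p of 0.0023 and 0.0342 by limma). *Ccne2* was dim, with a signal of 129 against 131 for replicate 1 and 122 against 125 for replicate 2. Its probe was well above background in Cy3 on both arrays and in Cy5 on 1 of the 2, and the log2 ratios of -0.02 and -0.04 were not distinguishable from 0 at this signal (95% confidence interval -0.14 to 0.08). The *Ccne2* ratio was -0.09 with median centring, -0.10 without background subtraction, -0.17 in the deposited table and -0.21 in the processed signals, the last pair below that interval, and it passed the test in none of these (lowest adjusted p = 0.0531 by limma, in the processed signals).

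*Ccna2*, the A-type cyclin of dividing somatic and stem cells, gave 8198 against 9047 for replicate 1 and 7903 against 8479 for replicate 2. The log2 ratios were -0.14 and -0.10, and the gene did not pass the test (adjusted p = 0.0714 by limma). With median centring its log2 ratio was 0.13.

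*Ccnb1* encodes cyclin B1, the main partner of CDK1 at mitotic entry, and is measured by 3 probes. The brightest gave 13031 in AIMP3-depleted cells against 16454 in the control pool for replicate 1, and 13205 against 15900 for replicate 2. Both AIMP3-depleted values lay below both control values. The same held for the brightest probes of *Ccnd3*, *Ccne1* and *Ccna2*, which did not pass the test. The log2 ratios were -0.34 and -0.27 (mean -0.30 ± 0.048, SD, n = 2; limma, Benjamini-Hochberg adjusted p = 0.00312). The other probes, for which the array lists the same transcript, had mean log2 ratios of -0.35 and -0.39 (adjusted p = 0.00152 for each by limma), so that all 3 fell, within a range of 0.083. With median centring they had -0.01, -0.13 and -0.17, of which the first and second did not pass the test (adjusted p of 0.888 and 0.121 by limma) and the last still did, lower (adjusted p = 0.0337).

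*Ccnb2* encodes cyclin B2, the B-type cyclin found mostly at the Golgi apparatus. Its probe gave 17752 against 20569 for replicate 1 and 16411 against 19755 for replicate 2. The log2 ratios were -0.21 and -0.27, with a mean of -0.24 ± 0.039 (SD, n = 2) and a Benjamini-Hochberg adjusted p of 0.0072 by limma. In the authors' deposited table the mean was -0.18 and did not pass (adjusted p = 0.0617 by limma), and with median centring it was 0.07. *Ccnb1* and *Ccnb2* lay at percentiles 8.04 and 12.4 of the log2 ratios of all tested genes.

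*Cdk1* encodes the kinase of mitotic entry. Its 3 probes are listed for the same transcript and had mean log2 ratios of 0.05, 0.07 and -0.08, in order of brightness, of which none passed the test (adjusted p of 0.404, 0.263 and 0.194 by limma). The brightest gave 7987 against 7871 for replicate 1 and 7864 against 7433 for replicate 2. The 95% confidence interval of its log2 ratio, -0.06 to 0.17, lay above that of *Ccnb1*, -0.42 to -0.19. In the processed signals of the scanner software the brightest *Cdk1* probe had -0.01, and with median centring it had 0.30 and passed (adjusted p = 0.000153 by limma).

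*Cdk4*, the kinase that D-type cyclins activate, gave 37263 against 34479 for replicate 1 and 34985 against 32447 for replicate 2 with the brightest of its 3 probes. The log2 ratios were 0.11 on both arrays and did not pass the test (adjusted p = 0.0905 by limma). The other probes had 0.10 and -0.04 and did not pass it either. With median centring the log2 ratio of the brightest probe was 0.49. It passed (adjusted p = 1.72e-10 by limma), in a fit whose adjusted p followed the size of the ratio alone.

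The regions before the *Ccnb1*, *Ccnb2* and *Cdk1* starts are shown because these 3 genes are known to be switched on together late in the cycle, while here the B-type cyclins fell and *Cdk1* did not pass the test. Each is the 120 bases before the start in RefSeq on GRCm38.p6, written 5′ to 3′ on the strand of the gene. Capitals mark CCAAT or its opposite strand ATTGG, the letters that the factor NF-Y binds, TTTGAA, the cell cycle homology region bound by MuvB complexes, and TTGGCGC or its opposite strand GCGCCAA, letters known from E2F sites.
Ccnb1, chr13:100786487-100786606, minus strand: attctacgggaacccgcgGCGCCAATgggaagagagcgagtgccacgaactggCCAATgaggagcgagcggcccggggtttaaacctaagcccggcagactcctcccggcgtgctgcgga
Ccnb2, chr9:70421555-70421674, minus strand: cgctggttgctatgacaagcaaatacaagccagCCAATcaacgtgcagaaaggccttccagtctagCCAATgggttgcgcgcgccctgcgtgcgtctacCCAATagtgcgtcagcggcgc
Cdk1, chr10:69352913-69353032, minus strand: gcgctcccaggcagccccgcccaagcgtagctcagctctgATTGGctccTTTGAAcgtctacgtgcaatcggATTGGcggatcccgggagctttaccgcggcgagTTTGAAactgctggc

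CCAAT stood 2 times in the *Ccnb1* stretch, the first of them sharing bases with GCGCCAA, 3 times in that of *Ccnb2* and, on the opposite strand, 2 times in that of *Cdk1*. TTTGAA stood 2 times in the *Cdk1* stretch, and was found before the *Ccnb2* start only further out, beginning at base 167. Bases after the start and other spellings were not searched. A site of this kind in *Ccnb1* or *Ccnb2* may therefore have been missed. Further out in *Cdk1* stood CCAAT on the opposite strand, beginning at base 208, and TTGGCGC, beginning at base 178. In the 250 bases before the start, searched on both strands, 33.8% of all 32851 RefSeq windows held CCAAT, 15.99% held TTTGAA and 1.97% held TTGGCGC. Windows were found for 6 of the 10 genes, 7 windows in all. Outside the 3 genes shown, CCAAT stood in 1 of the 2 *Ccnd3* windows, and no searched motif, TTCCCGC included, stood in those of *Ccne1* and *Cdk4*. CCAAT was thus found in both B-type cyclins that fell and in *Cdk1* and *Ccnd3*, which did not pass the test. These letter matches describe the windows and are not tests of binding.

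By type, the mean log2 ratio over the 3 D-type cyclins was 0.43 with replicate 1 and 0.47 with replicate 2. Over the 5 cyclins of the E, A and B types it was -0.18 and -0.15. The difference, D types over the others, was 0.61 and 0.63, with a mean of 0.62 on the log2 scale, and it lay between 0.61 and 0.66 under every setting tried. The D-type mean is carried by *Ccnd1* and *Ccnd2*, whose mean was 0.70 and 0.74, while *Ccnd3* lay between *Ccne2*, which was dim, and *Ccna2*. In the other 4 normalizations *Ccnd3* lay above all 5 cyclins of the E, A and B types. The genes are no replicates of each other and both arrays share the control pool, so this difference is a description without a test.

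From the highest to the lowest log2 ratio the order was *Ccnd2*, *Ccnd1*, *Cdk4*, *Cdk1*, *Ccne2*, *Ccnd3*, *Ccna2*, *Ccne1*, *Ccnb2* and *Ccnb1*. Of the 9 neighbours in this order, 7 had overlapping 95% confidence intervals. The exceptions were *Ccnd2* over *Ccnd1*, by 0.36, and *Ccnd1* over *Cdk4*, by 0.43. All 18 probes had the same sign on both arrays, and their SD between arrays had a median of 0.027 in log2 units (from 0.0024 to 0.077).

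How the dyes were balanced moved all 10 genes. With loess 4 genes had ratios above 0 and 6 below, and with median centring 8 lay above 0 and 2 below. Median centring also moved the median of all tested probes, from 0.0065 to 0.16, and relative to that median 6 genes lay above and 4 below. With it, 6 genes passed the adjusted test, all higher, in place of 2 higher and 2 lower. They were *Ccnd1*, *Ccnd2*, *Ccnd3*, *Ccne1*, *Cdk1* and *Cdk4*, by their brightest probes. Of all tested genes 61.5% passed under this setting, so 6 of 10 is near its background. Relative to the median of all probes, *Ccnd2* had 0.94, *Ccnd1* 0.63, *Ccnb1* -0.17 and *Ccnb2* -0.08 under median centring, against 0.90, 0.54, -0.31 and -0.25 under loess. *Ccnd3* and *Ccne1* had 0.11 and 0.09 on this relative scale under median centring, against -0.09 and -0.14 under loess. The high ratios of *Ccnd1* and *Ccnd2* and the order of D types over B types held in all 5 normalizations, while the signs of *Ccnd3*, *Ccne1*, *Ccna2* and *Ccnb2* turned under median centring and that of *Cdk1* turned in the processed signals.

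**Figure D3:**
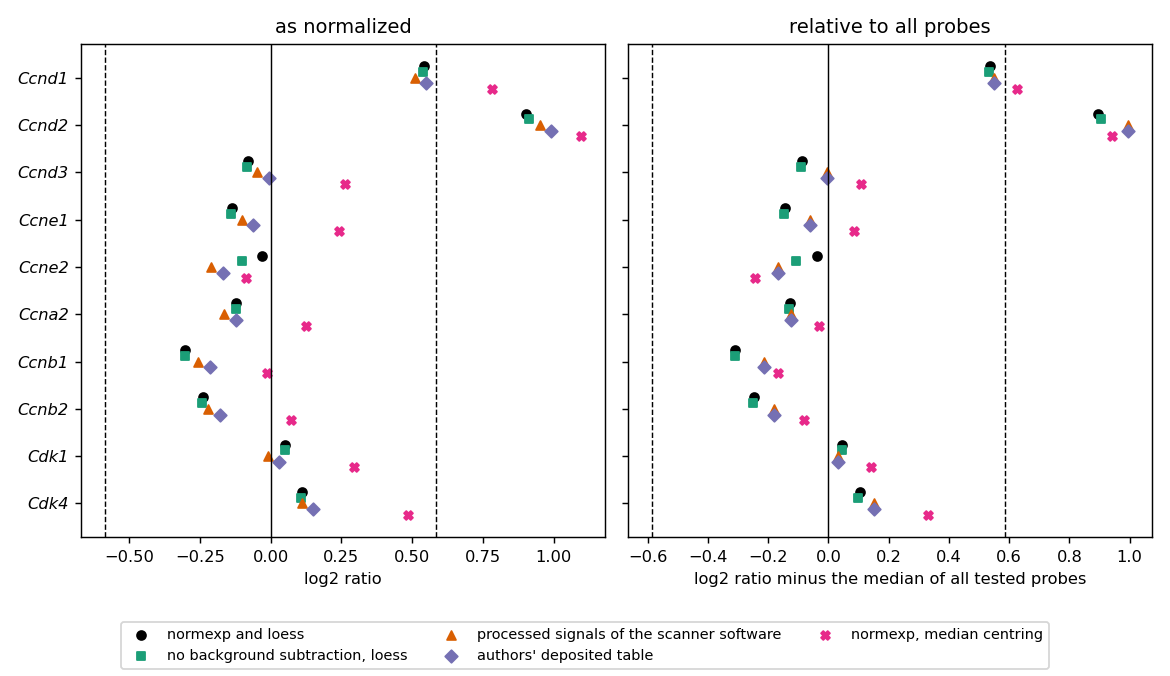
Mean log2 ratio of the brightest probe of each gene under 5 normalizations (left), and the same minus the median of all tested probes under that normalization (right), with dashed lines at 1.5-fold. Median centring (pink crosses) shifts 9 of the 10 genes to the right of the loess values (black circles), and *Ccne2* to the left. *Ccnd1* and *Ccnd2* stay the highest of the 10 in both panels.

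Other genes of the same machinery were described by lists of cyclins, kinases and their regulators. Over 6 such lists, 84 genes were tested. Of these, 5 genes were called at over 1.5-fold, all higher, or 5.95% beside the background of 6.32%. At an adjusted p under 0.05 by limma, 25 were higher and 21 lower, or 54.8% beside 51.8%. That background is made up of 29.4% higher and 22.4% lower, and the splits of each list below are read beside it. The median log2 ratio of the 84 genes was 0.03, against 0.015 for all genes.

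Of the other cyclins, 14 of 15 were tested, and *Ccnb3* was not above background. *Ccng1*, which encodes the p53-responsive cyclin G1, was the one called, with log2 ratios of 0.81 and 0.88. A total of 4 were higher and 3 lower by adjusted p, from *Ccng1* at 0.84 to *Ccni* at -0.33. One of the 4 is *Ccna1*, the germ-cell cyclin A1, at 0.22, whose probe was well above background in Cy5 alone and so entered the test only through the sample in which it was higher. Its ratio was 0.77 in the processed signals and -0.16 in the deposited table, so no direction is read from it. Of 16 other cyclin-dependent kinases, *Cdk14*, a kinase that pairs with cyclin Y at the membrane, was called with log2 ratios of 0.81 and 1.01. By adjusted p, 6 of the kinases were higher and 5 lower, and the lowest was *Cdk8*, the kinase of the Mediator complex, at -0.34. *Cdk6*, which like *Cdk4* acts with D-type cyclins, had log2 ratios of 0.32 on both arrays (adjusted p = 0.00213 by limma), and was named here after its value was seen. Its size depended on the normalization, with 0.34 under median centring, 0.47 without background subtraction, 0.78 in the processed signals and 0.82 in the deposited table, and in the last pair it was called at over 1.5-fold. *Cdk2*, the partner of cyclins E and A, had -0.05 and -0.23 and did not pass (adjusted p = 0.0935), had 0.05 under median centring, and was likewise named after its value was seen.

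Of 8 kinase partners and enzymes that set the phosphorylation of CDKs, 0 were called at 1.5-fold by limma, and 2 had an unadjusted p under 0.05, a threshold that 58.9% of all tested genes passed. *Cdc25c*, a phosphatase that activates CDK1, was the one lower by adjusted p, with log2 ratios of -0.26 and -0.38. The highest was *Cks2*, a small subunit of CDK complexes, at 0.12. Of the 6 CDK inhibitors, 3 were called, all higher, beside 5.52% of all tested genes. They were *Cdkn2b*, which binds CDK4 and CDK6, at 1.28, *Cdkn1a*, which encodes p21, at 1.21, and *Cdkn1c*, which encodes p57, at 0.90. The other probe of *Cdkn1a* had 0.28. The lowest of the inhibitors was *Cdkn1b* at 0.07, and the list median was 0.63.

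Of 19 pocket proteins, E2F factors and MuvB subunits, 0 were called at 1.5-fold by limma, 12 had an unadjusted p under 0.05, beside 58.9% of all tested genes, and 5 were higher and 5 lower by adjusted p. By brightest probe they ran from *E2f6*, a repressive E2F factor, at 0.53 to *Lin54*, the MuvB subunit that binds TTTGAA, at -0.34. The dimmer probe of *Rbl1*, which encodes the pocket protein p107, lay lower at -0.61, beyond 1.5-fold, against -0.32 for its brightest probe. Of 22 genes of cyclin proteolysis, 21 were tested, and no probe was matched to *Skp2*. By limma 0 were called at 1.5-fold, 16 had an unadjusted p under 0.05, beside 58.9% of all tested genes, and 6 were higher and 7 lower by adjusted p. *Fbxw7*, the F-box protein that marks cyclin E for degradation, was the highest at 0.37, although its other probe had 0.04. The lowest was *Ube2s*, the enzyme that extends ubiquitin chains for the anaphase-promoting complex, at -0.56. With median centring 11 of the 84 genes were called, all higher, *Fbxw7* and *E2f6* among them, beside a background of 12.02% of all genes, and *Ccni*, *Cdk8*, *Cdc25c*, *Lin54* and *Ube2s* lay between -0.20 and -0.07.

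**Figure D4:**
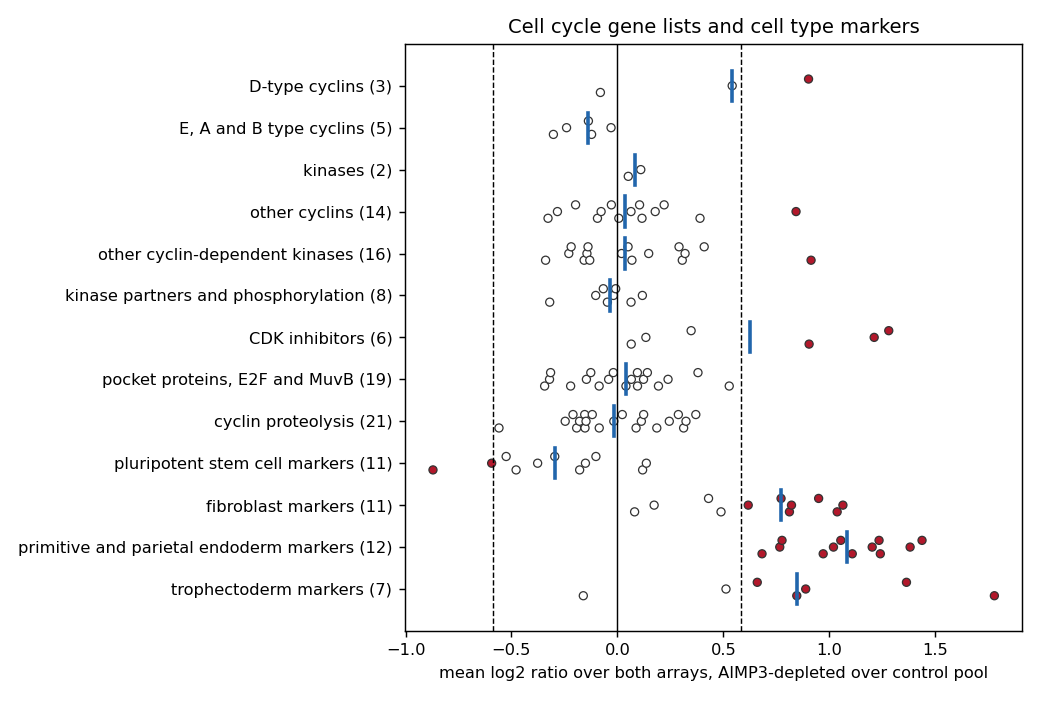
Mean log2 ratio of every tested gene of the cyclin and kinase groups, 6 lists of other cell cycle genes and 4 lists of cell type markers, with the number of tested genes in brackets. Filled points passed 1.5-fold with an unadjusted p under 0.05, dashed lines mark 1.5-fold and blue bars mark the median of each list. Of the cell cycle lists the CDK inhibitors have the highest median (0.63), and the endoderm markers (1.08), trophectoderm markers (0.85) and fibroblast markers (0.77) all have medians above it.

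Of all members and cell cycle genes compared, 93 in number, the 3 whose ratios on the 2 arrays lay nearest to those of *Ccnd2* were *Ccng1*, *Cdkn1c* and *Cdk14*, at Euclidean distances of 0.089, 0.118 and 0.128 on the log2 scale.

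Markers of other cell types also had high ratios. Their counts are read beside the 5.52% of all tested genes that were called higher. All 12 markers of primitive and parietal endoderm were called higher, from *Lamb1*, a laminin subunit, at 0.68 through *Col4a2* and *Sox7*, on either side of the median, at 1.05 and 1.11 to *Sox17*, an endoderm transcription factor, at 1.44. The summed signal of their brightest probes was 182246 and 192250 in the control pool against 390195 and 398343 in AIMP3-depleted cells. Such a sum adds probes with no common scale and is led by its brightest genes, and without *Sparc* it was 96948 and 97908 against 184641 and 179632. Of 8 trophectoderm markers 7 were tested, *Elf5* being dim, and 5 were called higher. This list ran from *Eomes* at -0.16 through *Gata3*, the median, at 0.85 to *Krt18*, a keratin of simple epithelia, at 1.78, with a summed signal of 58116 and 60338 against 180253 and 194114. *Krt18* made up most of that sum, and without it the other 6 markers gave 13088 and 12123 against 27589 and 26527. Of 12 fibroblast markers 11 were tested, *Lum* being dim, and 7 were called higher. They ran from *Col6a2* at 0.08 through *Postn*, the median, at 0.77 to *Col1a1*, a fibrillar collagen, at 1.06, with a summed signal of 21371 and 20938 against 38564 and 37214. All tested markers of these 3 lists were well above background in both channels on both arrays, so none was at 0 in the control pool.

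Of the 11 pluripotency markers, 2 were called lower, *Tdgf1* at -0.59 and *Fgf4* at -0.87, beside 0.791% of all tested genes. By adjusted p 8 were lower, beside 22.4% of all tested genes. The list median was -0.30, the middle gene being *Utf1*, and the highest was *Klf4* at 0.14. Their summed signal was 213355 and 204946 in the control pool against 159676 and 149055 in AIMP3-depleted cells. With median centring the list median was 0.07, and *Fgf4* and *Tdgf1* had -0.47 and -0.20, both within 1.5-fold. The cells were generally grown on feeder layers of mouse embryonic fibroblasts, and the methods give conditioned medium for incubation with drugs. The part of any of these cell types in the cyclin ratios was not tested.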

How the data were processed

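Gene expression was measured in 2 AIMP3-depleted replicates, each on 1 Agilent mouse array (Cy5) against 1 pool of control RNA (Cy3). The authors deposited, per array, the scanner output of Feature Extraction (version 11.5.1.1 per the file headers, another version than the methods name), which holds the intensity of each spot and its local background, not normalized, with processed signals of the software. A log10 ratio and p-values that the authors deposited in these files were not used as results. A further table deposited by the authors gives log2 ratios made with GeneSpring. After removal of a constant of 0.040 or 0.039, 99.7% of its values lay within 0.01 of the log2 ratio of the processed signals, so its scale and direction are those of Cy5 over Cy3. The columns had medians of 0.091 and 0.111, and how they were centred is unknown. There were 0 columns of values left unused for want of a sample.

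The signal and local background of a spot were taken as medians, the only signal summary present. Background was corrected by normexp (offset 50), each array was normalized by loess with control spots at weight 0, outlier-flagged spots (215 and 227) were dropped, and repeated spots were averaged per probe. A probe was tested if either channel was well above background on each array, which kept 33012 probes and left out 22669. No spot was saturated. Accessions were named through a RefSeq table on GRCm38.p6 (14972 of 24022 tested genes), and a gene was represented by its brightest probe. The mean log2 ratio of each probe was compared with 0 by limma's lmFit and eBayes. This fit had 1 residual and, with normexp and loess, 5.28 prior degrees of freedom. The p-values were adjusted over all tested probes. The code of the fit was run on simulated data with known changes, which checks the code and not these results. The small number of arrays limits precision.

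The members, lists and settings were chosen with earlier results of these data known. The text names every member, each gene of the cell cycle lists past 1.5-fold, and the highest and lowest of each list. It also names the highest, lowest and median markers, *Eef1e1* and the nearest 3 genes to a called member. Added beyond this rule were *Cdk6*, *Cdk2*, *Ccna1*, *Rbl1*, *Pou5f1*, *Nanog*, *Sox2*, *Tdgf1*, *Sparc* and the listed genes that could not be tested. Alternatives were no background subtraction, median centring, the processed signals, the deposited table, no filter and a stricter one, other probe rules, tests and thresholds, and each replicate left out. The software was limma 3.58.1 in R 4.3.3, with jsonlite 2.0.0 and the data.table package (version 1.17.8).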

Additional observations from a re-analysis of the deposited data

How the results depend on the processing

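Across 18 probes and the 6 settings that allow a test, 91 of 107 values kept their direction and their side of the adjusted threshold. Of the rest, 3 lost the call, 5 gained one and 8 turned sign. With no filter and with the stricter filter (18 and 17 probes) the ratios were those of the main fit, so only the adjusted p could change. The deposited table differs from the processed signals by nearly a constant, so they are not separate checks. With 1 replicate left out there is no test. The 36 ratios kept their sign, which was fixed beforehand, since all 18 probes had the same sign on both arrays. With median centring in place of loess the signs turned for both *Ccnd3* probes (0.26 and 0.19), the brightest *Ccne1* probe (0.24), *Ccna2* (0.13), *Ccnb2* (0.073) and the dimmest *Cdk4* probe (0.22), and the median over the 18 probes went from -0.071 to 0.21. The brightest *Cdk1* probe had -0.010 in the processed signals, and the dimmest *Cdk4* probe 0.038 in the deposited table. The median over the probes was -0.099 in the processed signals, -0.059 in the deposited table, -0.080 with the stricter filter, and -0.067 to -0.057 with a replicate left out. The cause of these shifts was not tested.

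At over 1.5-fold 1 gene was called, against 2 with median centring, 2 at the lower fold threshold tried and 0 at 2-fold, where 6.32%, 12.02%, 21.8% and 1.24% of all genes were called. By adjusted p 4 genes were called, against 3 to 6 under the other settings with limma (28.8% to 61.5% of all genes). The methods' t-test called 0 of all tested genes after Benjamini-Hochberg adjustment, members included. At 1.5-fold with an unadjusted p under 0.05 it called 1 of the 10 (*Ccnd2*), beside 4.13% of all tested genes. The difference of D types over the others (0.62) was 0.64 without background subtraction, 0.65 with median centring, 0.66 in the processed signals and in the deposited table, 0.65 with the stricter filter, 0.66 by the mean of all probes, and 0.61 to 0.63 with a replicate left out. In the lists of other cell cycle genes 5 were called, against 11 with median centring and 7 in the processed signals and in the deposited table, where the backgrounds were 12.02%, 11.3% and 11.4%. Among all called probes 87.0% were higher, against 97.5% with median centring, 68.4% in the processed signals and 74.8% in the deposited table. No paired analysis was possible because the control is 1 pool with no replicate numbers. With a replicate left out, no adjusted p can be had, since no residual degree of freedom is left.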
